A study of Mus musculus with 12 samples.

Results

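The genes described here encode desmosome proteins and plakins, chosen by symbol: Dsp, Pkp1, Pkp2, Pkp4, Jup, Dsg2, Dsc2, Perp, Ppl and Evpl. All 10 were found among the 17576 genes of the deposited table. Their mRNA was measured by RNA sequencing of total RNA in 12 libraries of C18-4 cells, a mouse germline stem cell line made from spermatogonia, labelled with the strain IRC mouse. The 4 groups of 3 libraries each were 8276KD (virus for inhibition of lncRNA8276), 8276OV (virus for its overexpression), 5NC and 3NC. The labels do not spell out 5NC and 3NC, and these were taken as the control viruses of 8276OV and 8276KD because the series' design text lists them in those pairs. All groups share the cell line and a transfection with virus. The labels give neither the virus, its promoter and the time after transfection, nor a statement that replicates were grown separately. The p-values therefore rest on the spread among the deposited libraries, and that spread may be technical. How far the viruses changed lncRNA8276 was not analysed here.

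A desmosome joins neighbouring cells and ties their intermediate filaments together. Desmogleins and desmocollins (Dsg and Dsc genes) are cadherins that bind across the gap between the cells. Inside the cell their tails bind plakoglobin (Jup) and the plakophilins (Pkp genes), armadillo-repeat proteins that in turn hold desmoplakin (Dsp), the plakin that grips keratin or other intermediate filaments. Periplakin (Ppl) and envoplakin (Evpl) are plakins that pair with each other and are best known from the cornified envelope of skin, and Perp is a membrane protein of desmosomes and a target of p53 and p63. Plakoglobin and Pkp4 also sit at adherens junctions. In the testis, desmosome-like contacts are known between Sertoli cells and germ cells.

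RefSeq promoter sequences were at hand for 3 of the 10 genes. These genes, Dsp, Jup and Pkp4, are also 3 of the 4 that were higher in 8276KD than in either control. Their promoters are shown because they were at hand, not because of that result. Each line gives the 250 bases before a start that RefSeq lists, on the strand of the gene (GRCm38.p6), with matches to the searched letters in capitals (CCGCCC and ATTGG are GC box and CCAAT matches on the other strand). The positions are chr13:38151044-38151293 (plus strand) for Dsp, chr11:100397791-100398040 (minus strand) for Jup and chr2:59160600-59160849 (plus strand) for Pkp4. The listed Jup start lies inside the outer bounds of the gene given further on, so the 3′ end of that window overlaps the gene's outermost transcript.
Dsp: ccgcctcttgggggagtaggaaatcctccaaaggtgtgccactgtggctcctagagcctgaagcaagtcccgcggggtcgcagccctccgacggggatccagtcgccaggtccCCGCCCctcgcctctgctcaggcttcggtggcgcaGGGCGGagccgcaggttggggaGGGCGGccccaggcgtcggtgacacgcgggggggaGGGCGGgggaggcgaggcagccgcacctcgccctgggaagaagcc
Jup: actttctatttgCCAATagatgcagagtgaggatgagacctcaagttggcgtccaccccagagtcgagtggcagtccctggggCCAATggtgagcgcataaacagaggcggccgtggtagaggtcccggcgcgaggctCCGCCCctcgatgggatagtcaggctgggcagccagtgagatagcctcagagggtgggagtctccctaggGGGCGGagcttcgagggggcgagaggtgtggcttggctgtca
Pkp4: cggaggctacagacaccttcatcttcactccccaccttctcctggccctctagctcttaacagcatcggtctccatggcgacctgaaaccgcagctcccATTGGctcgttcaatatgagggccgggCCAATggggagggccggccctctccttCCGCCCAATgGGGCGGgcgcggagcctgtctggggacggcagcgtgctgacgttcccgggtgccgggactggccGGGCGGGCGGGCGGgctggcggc
The letters searched on both strands were TGANTCA (AP-1), CACCTG (the E-box of SNAIL and ZEB repressors), GGGCGG (the GC box) and CCAAT. The GC box letters occurred 4 times before Dsp, 2 times before Jup and 5 times before Pkp4, where 3 copies overlap each other and 1 more overlaps a CCAAT match. Of all 32851 promoter windows of this length, 32.7% held them at least once. CCAAT occurred 2 times before Jup, 3 times before Pkp4 and 0 times before Dsp, and 33.8% of windows held it. TGANTCA and CACCTG occurred 0 times in the 3 windows shown, against 6.75% and 17.2% of all windows. A second annotated Pkp4 start, not shown, had 1 CACCTG match and 0 GC boxes. GC content was 72.4% before Dsp, 62.0% before Jup and 68.4% before Pkp4.

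The values were read as FPKM, fragments scaled by transcript length and library total, so levels can be set side by side between genes. The lowest values of short transcripts, taken as 1 fragment each, implied a depth of 11.9 to 13.3 M fragments per library (M, 1e6). This estimate is a median within a set window of level times transcript length, which bounds it and may largely set it. Fragment counts and counting errors below are therefore approximate. Pearson's r of log2(FPKM + 1) ranged from 0.993 to 0.998 within groups and from 0.951 to 0.988 between groups. Of 9 germ cell and spermatogonial markers in the table, 9 stayed below 1 FPKM in all 12 libraries, with summed levels of 0.21 to 0.41 FPKM in 8276KD, 0.23 to 0.25 in 8276OV, 0.2 to 0.57 in 5NC and 0.12 to 0.3 in 3NC. Markers of the labelled germline origin were thus at or near 0. Of 7 markers of simple epithelium, 4 reached 1 FPKM in all 12 libraries and 3 stayed below it. The summed epithelial level, most of it Krt19, was 381 to 461 FPKM in 8276KD, 223 to 265 in 8276OV, 269 to 290 in 5NC and 318 to 326 in 3NC. Cdh1, the cadherin of epithelial adherens junctions, reached at most 0.07 FPKM. Of 5 mesothelial markers 5 reached 1 FPKM in every library. So did 4 of 5 peritubular myoid markers, 3 of 8 Sertoli markers and 0 of the 4 Leydig markers in the table. Summed levels per library lay between 66.5 and 88.2 FPKM for the myoid list. For the Sertoli list they lay between 58 and 75.2 FPKM, most of it Wt1. Krt19 is on the epithelial and mesothelial lists, and Wt1 is on the mesothelial and Sertoli lists. The summed mesothelial level was 814 to 944 FPKM in 8276KD, 752 to 877 in 8276OV, 1150 to 1170 in 5NC and 608 to 627 in 3NC. Krt8, Krt18, Krt19 and the myoid marker Des are also among the filament genes described further on. The part of these marker differences in the results below was not tested.

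Plaque and plakin mRNA was measured in all libraries, while mRNA of Dsg2, Dsc2 and Ppl was at or near 0. Dsp, Jup, Pkp1, Pkp2, Pkp4, Perp and Evpl reached 1 FPKM in all 12 libraries and were tested. Dsg2, the desmoglein of simple epithelia and heart, was at most 0.05 FPKM and was listed at 0 in 7 of 12 libraries. Dsc2, its desmocollin partner, was above 0 in 1 library (0.01 FPKM in 8276KD replicate 2). Ppl ranged from 0 to 0.08 FPKM. The highest of these values correspond to about 4 fragments for Dsg2, 1 for Dsc2 and 6 for Ppl, so no difference between groups was read from them.

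**Figure D1:**
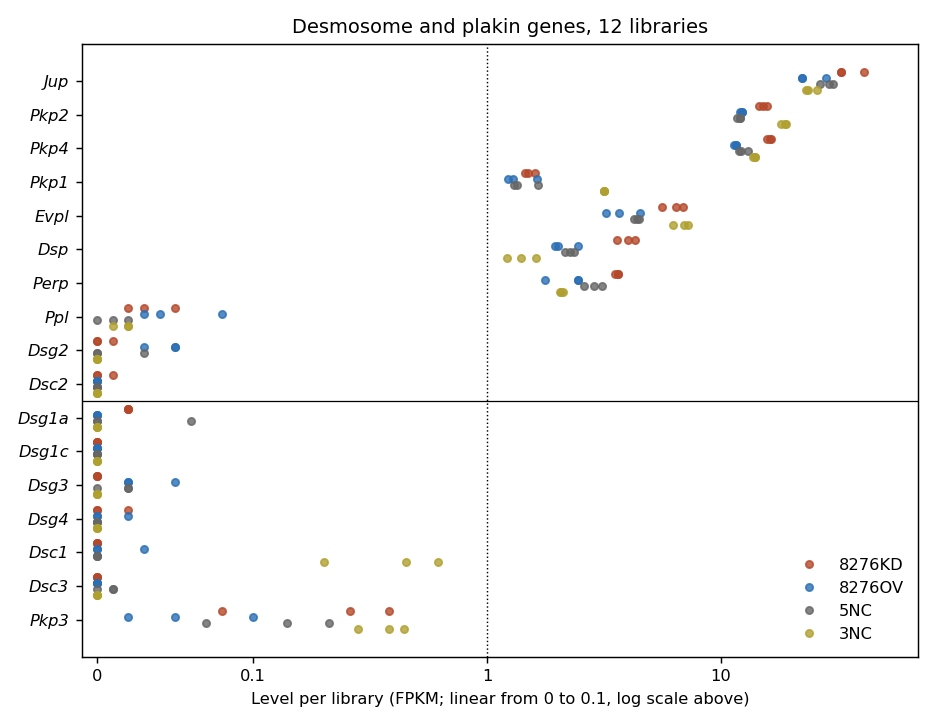
Level of each gene in each library in FPKM, linear up to 0.1 and logarithmic above, with the dotted line at 1 FPKM; the 10 genes described here stand above the horizontal line and other desmosomal cadherins and Pkp3 below it. The 7 tested genes lie to the right of the dotted line in all 12 libraries, and Ppl, Dsg2 and Dsc2 stay at or below 0.08.

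The remaining desmosomal cadherins and Pkp3 all stayed below 1 FPKM. Of 8 further desmosomal cadherin and plakophilin genes, 7 were in the table and 0 passed the filter on low values. Dsg1a, Dsg1c, Dsg3, Dsg4 and Dsc3 stayed at or below 0.06 FPKM. Dsc1, a desmocollin best known from the upper layers of skin, was listed at 0 in all 8276KD and 5NC libraries, at 0, 0 and 0.03 FPKM in 8276OV, and at 0.62, 0.45 and 0.20 FPKM in 3NC. Pkp3, a plakophilin of most epithelia, had 0.08, 0.38 and 0.26 FPKM in 8276KD, 0.02, 0.10 and 0.05 in 8276OV, 0.21, 0.14 and 0.07 in 5NC, and 0.38, 0.28 and 0.44 in 3NC.

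Jup was the most abundant of the 10 genes and Dsp one of the lowest that passed the filter. Within a library, the Jup level was 7.65 to 11.4 times the Dsp level in 8276KD, 9.10 to 14 times in 8276OV, 12.3 to 13.3 times in 5NC and 14.3 to 19.4 times in 3NC. The 8276KD range overlapped neither that of 3NC nor that of 5NC, and the ranges of the controls did not overlap each other. Implied fragments per library were 847 to 1613 for Jup, 626 to 950 for Pkp4, 423 to 711 for Pkp2, 261 to 584 for Evpl and 150 to 499 for Dsp. Perp (44 to 93 fragments) and Pkp1 (68 to 188) rest on fewer, and counting error alone is about 15% for the lowest Perp value and 12.1% for the lowest Pkp1 value. Such errors cover counting only and rest on the implied depth.

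Dsp, Jup, Perp and Pkp4 were higher in 8276KD than in 3NC, and Pkp1 and Pkp2 were lower. This comparison asks what follows when lncRNA8276 is inhibited. Tests used limma on log2(FPKM + 1) over 11360 genes with Benjamini-Hochberg adjustment and a threshold of 0.05, and fold changes on this scale understate changes of low genes. Of the 7 tested members, 4 rose and 2 fell, against 20.0% and 19.5% of all genes tested (39.4% in either direction). Groups did not overlap for 6 of the 7, against 49.6% of all genes. The median over the 7 was 0.20 on the log2 scale, against -0.0048 over all genes. In bulk RNA, fewer cells that express a gene and less RNA per cell cannot be told apart.

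Dsp (gene 109620, chromosome 13, 38151294 to 38198577) had 4.28, 3.59 and 4.00 FPKM in 8276KD, 2.44, 2.01 and 1.95 in 8276OV, 2.27, 2.36 and 2.16 in 5NC, and 1.22, 1.62 and 1.40 in 3NC. Each 8276KD library lay above the other 9 libraries and each 3NC library below the other 9, while 8276OV and 5NC overlapped. The mean was 3.96 ± 0.347 in 8276KD and 1.41 ± 0.200 in 3NC (SD, n = 3 each), a ratio of 2.80 in FPKM (log2 fold change 1.04, SE 0.0853, limma adjusted p = 1.06e-06). A short gene annotated as Gm10129 overlaps Dsp exons on the opposite strand, and whether counting used strand is not given in the sources used here.

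Jup (gene 16480, chromosome 11, 100368856 to 100397839) had 32.74, 41.05 and 32.77 FPKM in 8276KD, 22.20, 28.22 and 22.25 in 8276OV, 30.15, 28.92 and 26.51 in 5NC, and 23.63, 23.22 and 25.76 in 3NC. The 8276KD libraries lay above all others, and the other groups overlapped apart from 5NC and 3NC. In 8276KD the mean was 35.5 ± 4.79 and in 3NC 24.2 ± 1.36, with a log2 fold change of 0.53 (SE 0.0991, limma adjusted p = 9.67e-04). Replicate 2 was the highest Jup value in both 8276KD and 8276OV, and these 2 libraries also had the highest slope of level on GC content in their groups. The slope of log2 level on GC content, per 10 points, was 0.184 in 8276KD replicate 2 against -0.0402 and -0.00192 in its group, and -0.237 in 8276OV replicate 2 against -0.462 and -0.355. The part of GC content in the Jup values was not tested apart from the correction described further on. Without 8276KD replicate 2 the Jup fold change was 0.42 (limma adjusted p = 0.00213).

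Perp (gene 64058, chromosome 10, 18845071 to 18857073) had 3.65, 3.54 and 3.65 FPKM in 8276KD, 2.44, 1.77 and 2.45 in 8276OV, 2.86, 2.60 and 3.09 in 5NC, and 2.07, 2.06 and 2.12 in 3NC. The 8276KD libraries again lay above the other 9, and 8276OV overlapped 3NC. Its mean of 3.61 ± 0.0635 in 8276KD was 1.73 times that of 2.08 ± 0.0321 in 3NC (log2 fold change 0.58, SE 0.0852, limma adjusted p = 1.43e-04). These SDs are below the counting error of Perp at the implied depth. The spread between libraries of these groups is thus smaller than that estimate of counting alone. Trp53, which encodes p53, had a log2 difference of -0.044 between 8276KD and 3NC (limma adjusted p = 0.714), and was lower in 8276KD than in 5NC by 0.23 (limma adjusted p = 0.0349). Trp63, which encodes p63, stayed below the filter.

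Pkp4, an armadillo protein of adherens junctions and desmosomes with a known part in cytokinesis (gene 227937, chromosome 2, 59160850 to 59355205), had 16.20, 16.41 and 15.83 FPKM in 8276KD, 11.60, 11.60 and 11.43 in 8276OV, 11.93, 12.21 and 13.01 in 5NC, and 13.71, 14.06 and 14.02 in 3NC. The 4 groups were separate from each other, in the order 8276KD, 3NC, 5NC and 8276OV from high to low. The difference from 3NC was the smallest of the 4 called rises, with means of 16.1 ± 0.294 in 8276KD and 13.9 ± 0.192 in 3NC (log2 fold change 0.20, SE 0.0480, limma adjusted p = 0.00506).

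**Figure D2:**
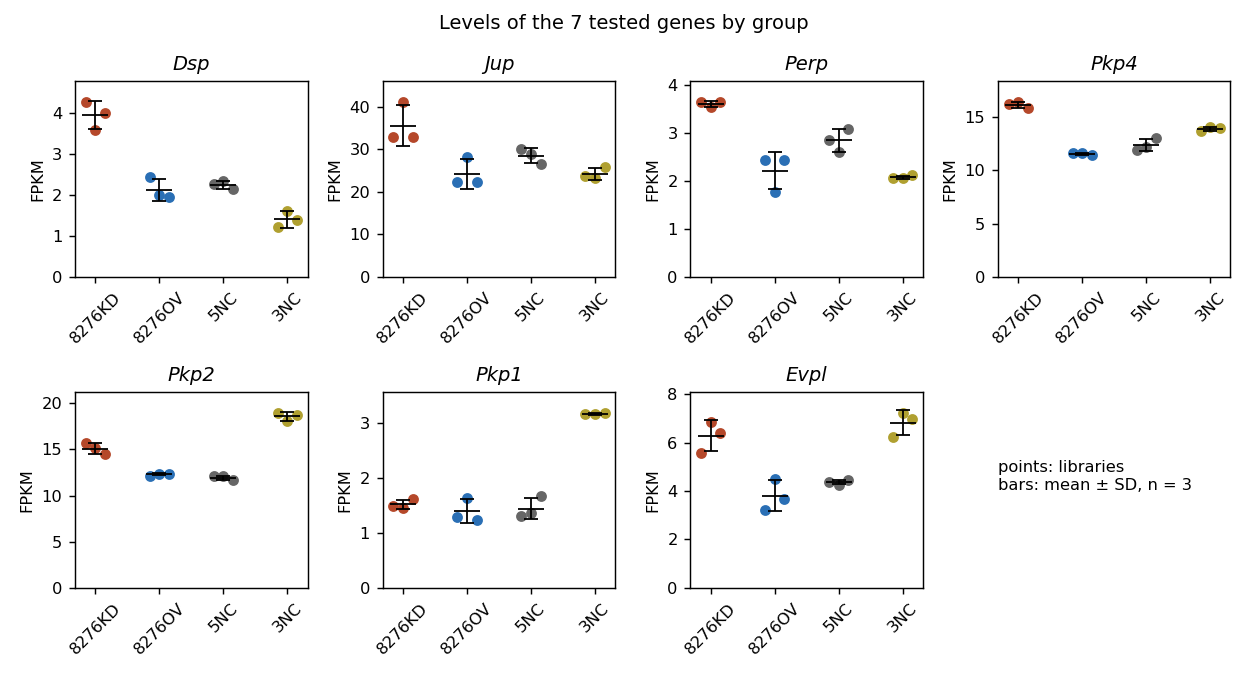
FPKM of the 7 tested genes in each library (points) with the group mean and SD (bars, n = 3), for 8276KD, 8276OV, 5NC and 3NC. The 8276KD libraries are the highest for Dsp, Jup, Perp and Pkp4, and the 3NC libraries for Pkp1 and Pkp2.

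Pkp1, the plakophilin of stratified epithelia (gene 18772, chromosome 1, 135871394 to 135919207), had 1.49, 1.45 and 1.61 FPKM in 8276KD, 1.29, 1.64 and 1.23 in 8276OV, 1.3, 1.35 and 1.66 in 5NC, and 3.15, 3.16 and 3.18 in 3NC. Only the 3NC libraries stood apart from the rest, and the other 3 groups overlapped each other. The mean was 1.52 ± 0.0833 in 8276KD and 3.16 ± 0.0153 in 3NC (log2 fold change -0.73, SE 0.0813, limma adjusted p = 1.59e-05). The Pkp1 SD in 3NC is below the counting error of its 187 to 188 implied fragments per library. The SDs of Pkp2 and Pkp4 in 8276OV are below counting error as well. Pkp2, the plakophilin of heart and simple epithelia (gene 67451, chromosome 16, 16213345 to 16272712), had 15.72, 15.15 and 14.54 FPKM in 8276KD, 12.13, 12.31 and 12.33 in 8276OV, 12.07, 12.08 and 11.69 in 5NC, and 18.98, 18.07 and 18.72 in 3NC. Here 8276KD lay between 3NC above it and the other groups below it, with means of 15.1 ± 0.590 in 8276KD and 18.6 ± 0.469 in 3NC (log2 fold change -0.28, SE 0.0478, limma adjusted p = 4.73e-04). Evpl (gene 14027, chromosome 11, 116220559 to 116238165) had 5.59, 6.87 and 6.41 FPKM in 8276KD, 3.23, 4.50 and 3.68 in 8276OV, 4.39, 4.27 and 4.45 in 5NC, and 6.24, 7.24 and 6.99 in 3NC. The 8276KD and 3NC libraries overlapped and both lay above the other groups (log2 difference -0.10 between them, SE 0.0938, limma adjusted p = 0.406). Its partner gene Ppl was near 0 in every library.

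Dsp, Jup, Perp and Pkp4 were also higher in 8276KD than in 5NC. This comparison shares the 8276KD libraries with the one above, so the pair are not independent. Against 5NC, 6 members rose and 0 fell, where 24.7% of all genes were higher and 30.5% lower (55.3% in all). Groups did not overlap for 6 of 7, against 60.0% of all genes. With both controls pooled, 5 members were called, 4 higher and 1 lower, against 20.7% and 24.5% of all genes (45.2% in all). The log2 fold changes against 3NC and 5NC were 1.04 and 0.60 for Dsp, 0.53 and 0.30 for Jup, 0.58 and 0.26 for Perp, and 0.20 and 0.36 for Pkp4. Adjusted p-values against 5NC by limma were 5.60e-05 for Dsp, 0.0197 for Jup, 0.0181 for Perp and 3.44e-05 for Pkp4. Jup was no longer called against 5NC without 8276KD replicate 2 (log2 difference 0.20, limma adjusted p = 0.0792), an alternative chosen after the data were seen. For the remaining genes the calls depended on the control. Pkp2 was lower by 0.28 against 3NC and higher by 0.32 against 5NC (limma adjusted p = 9.21e-05). Evpl was called higher against 5NC (0.44, limma adjusted p = 0.00142), and Pkp1 differed from 5NC by 0.049 (limma adjusted p = 0.631).

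**Figure D3:**
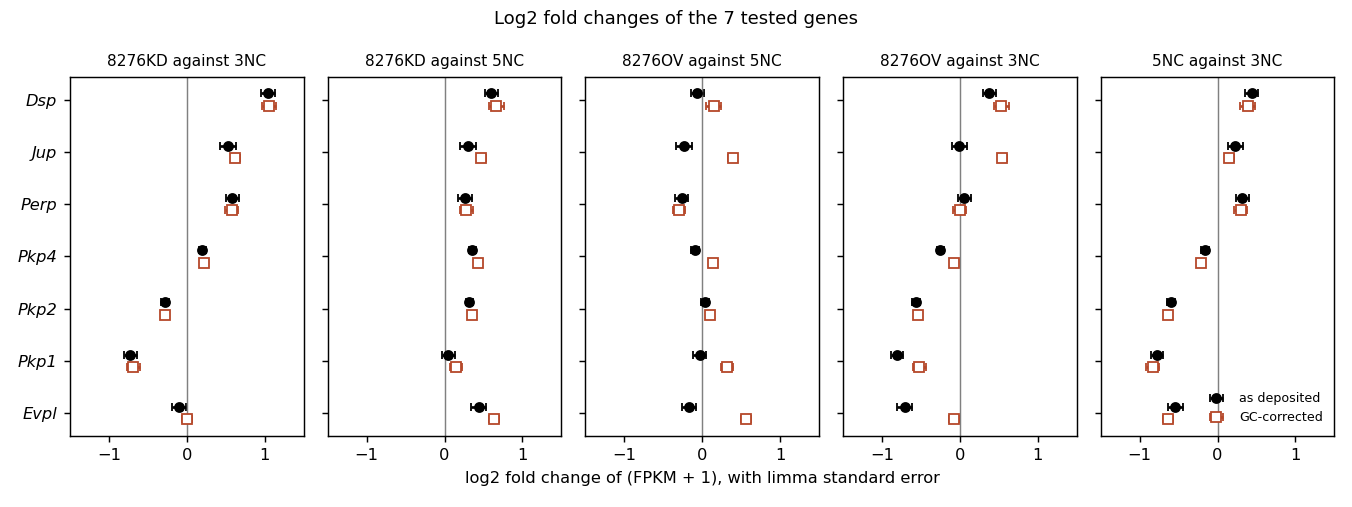
Log2 fold change of (FPKM + 1) with limma standard errors for the 7 tested genes in 5 comparisons that share libraries, as deposited (filled circles) and after correction for GC content (open squares). Dsp, Jup, Perp and Pkp4 lie right of 0 in both 8276KD comparisons under either treatment, while Dsp, Jup, Pkp4, Pkp1 and Evpl change sides in 8276OV against 5NC.

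The control viruses differed from each other for most of these genes. Between 5NC and 3NC, 2 members were higher in 5NC (Dsp and Perp) and 4 lower (Pkp1, Pkp2, Pkp4 and Evpl), against 30.6% and 25.9% of all genes (56.5% in all). Groups did not overlap for 7 of 7, against 69.5% of all genes. The log2 difference between 5NC and 3NC was -0.78 for Pkp1 (SE 0.0813, limma adjusted p = 2.86e-06), -0.60 for Pkp2, -0.54 for Evpl and -0.16 for Pkp4. It was 0.44 for Dsp (limma adjusted p = 6.59e-04) and 0.32 for Perp (limma adjusted p = 0.00602). Jup differed by 0.23 (limma adjusted p = 0.0650), a value called when 5NC and 3NC alone were fitted (limma adjusted p = 0.00287). After the GC correction described further on, Jup was called higher in 5NC (0.15, limma adjusted p = 0.0373). The other tested members stayed called with the same signs. The Pkp4 call was lost without 5NC replicate 1 (-0.13, limma adjusted p = 0.0557) and with library sums made equal (-0.12, limma adjusted p = 0.0591), where Jup was called (0.27, limma adjusted p = 0.0229).

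In 8276OV, Perp and Jup were lower than in 5NC as deposited, and both calls were lost under 2 of the 3 other scalings. Against 5NC, 0 members rose and 2 fell, where 30.3% of all genes were higher and 44.1% lower (74.4% in all). With quantile normalization or median-of-ratios factors, Perp (-0.12 and -0.20) and Jup (-0.14 and -0.15) were not called and Pkp2 was called higher (0.17 and 0.12, limma adjusted p = 0.00587 and 0.0368). With library sums made equal, Perp and Jup remained called and Pkp4 was also called lower (-0.13, limma adjusted p = 0.0272). The median of all genes was -0.088 as deposited and 0.029 with quantile normalization, and calls over all genes then split into 4428 higher and 3997 lower, against 3447 and 5005. Groups did not overlap for 3 of 7, against 77.6% of all genes. Perp averaged 2.22 ± 0.390 FPKM in 8276OV and 2.85 ± 0.245 in 5NC (log2 fold change -0.26, SE 0.0852, limma adjusted p = 0.0126). Jup averaged 24.2 ± 3.46 FPKM in 8276OV and 28.5 ± 1.85 in 5NC (log2 fold change -0.23, SE 0.0991, limma adjusted p = 0.0460). The Jup call was lost without 5NC replicate 1 or 2 or without 8276OV replicate 1 or 3 (-0.19, -0.22, -0.18 and -0.18, limma adjusted p = 0.142, 0.101, 0.156 and 0.165). The Perp call was lost without 5NC replicate 3 or 8276OV replicate 2 (-0.22 and -0.16, limma adjusted p = 0.0573 and 0.0631). Log2 differences of the others were -0.062 for Dsp, -0.031 for Pkp1, 0.034 for Pkp2, -0.093 for Pkp4 and -0.17 for Evpl, with limma adjusted p between 0.0949 and 0.741.

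This comparison moved with the GC content of transcripts. Across genes, which are not independent replicates, Spearman's rho between fold change and GC content was -0.789 for 8276OV against 5NC and -0.220 for 8276KD against 3NC. Evpl (61.2% GC) and Jup (58.8%) are the most GC-rich of the tested members, and Perp (48.0%) the least. After the GC trend of each library was removed, 4 members were higher in 8276OV than in 5NC and 1 lower, against 27.8% and 27.0% of all genes (54.8% in all). Jup was then higher by 0.39 (limma adjusted p = 5.58e-05), Evpl by 0.56 (limma adjusted p = 4.75e-06), Pkp1 by 0.31 and Pkp4 by 0.14, while Perp stayed lower by 0.30 (limma adjusted p = 0.00608). Dsp was at 0.15 (limma adjusted p = 0.203). For Jup, Evpl, Pkp1, Pkp4 and Dsp the sign of the overexpression difference thus turned with the correction. Against 3NC in place of 5NC, 1 member was higher in 8276OV and 4 lower, where 33.5% of all genes were higher and 41.7% lower (75.2% in all). Log2 differences from 3NC were 0.38 for Dsp, -0.81 for Pkp1, -0.56 for Pkp2, -0.25 for Pkp4 and -0.71 for Evpl, all as deposited. After GC correction 2 members were higher than in 3NC and 2 lower, against 33.4% and 33.9% of all genes (67.3% in all): Dsp (0.53) and Jup (0.54, limma adjusted p = 1.15e-06) were called higher, Pkp1 (-0.52) and Pkp2 (-0.53) lower, and Pkp4 (-0.073) and Evpl (-0.076) were no longer called (limma adjusted p = 0.168 and 0.312). Against both controls together, 0 members were higher and 4 lower as deposited, against 33.2% and 44.9% of all genes (78.1% in all). After GC correction 3 were higher and 1 lower, against 31.6% and 31.0% (62.6% in all), and Evpl turned to 0.24, against -0.44 as deposited. In 8276KD against 3NC the same 6 genes were called after the correction with the same signs, 4 higher and 2 lower against 25.3% and 23.1% of all genes (48.4% in all), with log2 fold changes of 1.05 for Dsp, 0.62 for Jup, 0.58 for Perp, 0.22 for Pkp4, -0.69 for Pkp1 and -0.28 for Pkp2.

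The effects of overexpression and knockdown, each against its own control, were compared by their difference (overexpression minus knockdown), which was called for 6 of 7 members, 2 higher and 4 lower, against 24.5% and 36.2% of all genes (60.6% in all). It was -1.10 for Dsp (SE 0.121, limma adjusted p = 1.10e-05), -0.84 for Perp, -0.76 for Jup and -0.29 for Pkp4, and 0.70 for Pkp1 and 0.31 for Pkp2. After GC correction it was -0.91 for Dsp, -0.87 for Perp and -0.23 for Jup, with 3 members higher and 3 lower against 24.9% and 24.4% of all genes (49.3% in all). Pkp4 was then not called (-0.080, limma adjusted p = 0.321) and Evpl was (0.56, against -0.066 before). This difference contains that between the control viruses: Pkp1 averaged 1.39 ± 0.221 FPKM in 8276OV and 1.52 ± 0.0833 in 8276KD, levels that overlapped.

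Among the plakophilins, Pkp2 and Pkp4 made up most of the summed level in every group. The summed level of Pkp1 to Pkp4 was 32.2 to 33.5 FPKM in 8276KD, 25 to 25.6 in 8276OV, 25.5 to 26.4 in 5NC and 35.6 to 36.4 in 3NC. Pkp4 made up 48.9% ± 0.43 of it in 8276KD, 45.7% ± 0.56 in 8276OV, 47.8% ± 1.3 in 5NC and 38.6% ± 0.84 in 3NC (SD, n = 3 each). Pkp1 made up 4.60% ± 0.35 in 8276KD, 5.49% ± 0.80 in 8276OV, 5.54% ± 0.65 in 5NC and 8.78% ± 0.097 in 3NC. The 3NC libraries stood apart from the other 9 in both shares, and their sums lay above all others. These shares carry no test.

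**Figure D4:**
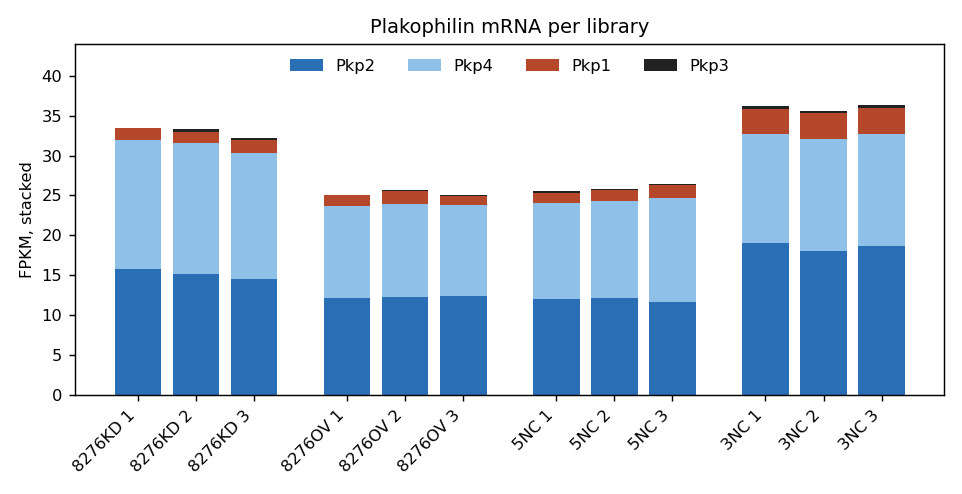
Stacked FPKM of Pkp2, Pkp4, Pkp1 and Pkp3 in each of the 12 libraries, by group. The stacks of 8276KD and 3NC reach 32.2 to 36.4, those of 8276OV and 5NC 25 to 26.4, and the Pkp1 segment is tallest in 3NC.

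Krt8, Krt18 and Krt19, keratins of simple epithelia and thus of the kind that desmoplakin binds, were higher in 8276KD than in either control. Of 8 filament genes, 6 were tested. Against 3NC 4 rose and 1 fell, where 20.0% of all genes were higher and 19.5% lower. Against 5NC 4 rose and 2 fell, where 24.7% were higher and 30.5% lower. The median over the 6 was 0.32 against 3NC and 0.41 against 5NC, and over all genes -0.0048 and -0.031. Krt5 and Krt14, keratins of basal epithelial cells, reached at most 0.03 and 0.3 FPKM. Krt19, the most abundant keratin on this list, had 301.8, 374.4 and 321.5 FPKM in 8276KD, 177.0, 210.5 and 192.4 in 8276OV, 220.0, 206.2 and 209.3 in 5NC, and 254.6, 244.9 and 251.0 in 3NC. The 8276KD libraries lay above all others, with log2 fold changes of 0.40 against 3NC and 0.64 against 5NC (limma adjusted p = 7.18e-04 and 7.61e-06). Krt8 rose by 0.60 and 0.42 and Krt18 by 0.24 and 0.39 against 3NC and 5NC. Both have processed copies in the mouse genome, so their reads may be shared. Krt7 was higher against 3NC (0.83) and lower against 5NC (-0.50). Vim, the filament gene of mesenchymal cells, fell by 0.28 against either control. Des, the muscle filament gene, differed by -0.15 from 3NC (limma adjusted p = 0.0988) and rose by 0.58 against 5NC.

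**Figure D5:**
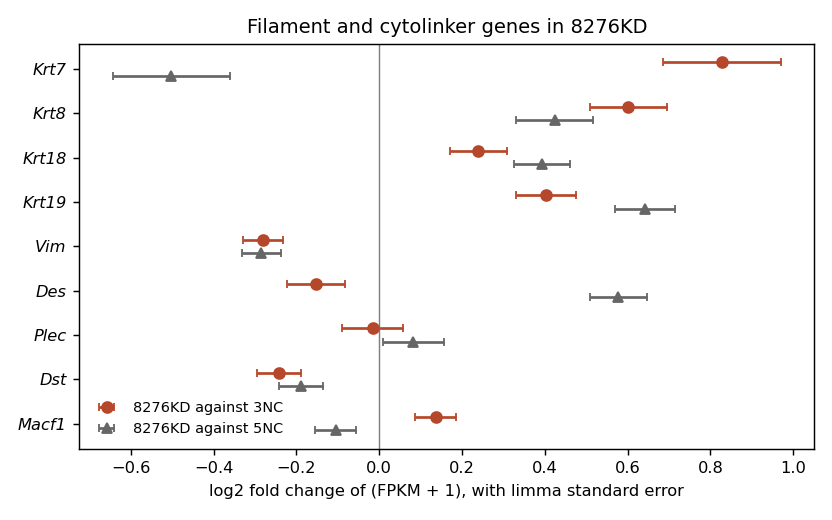
Log2 fold change of (FPKM + 1) with limma standard errors for filament and other plakin genes in 8276KD, against 3NC (circles) and against 5NC (triangles). Krt8, Krt18 and Krt19 lie right of 0 against both controls, Vim and Dst left of it, and Krt7, Des, Plec and Macf1 on opposite sides for the 2 controls.

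Among other plakin genes, Macf1 rose and Dst fell in 8276KD against 3NC. Of the plakin cytolinkers Plec, Dst, Macf1 and Eppk1, 3 were tested (Eppk1 reached at most 0.15 FPKM), so 1 rose and 1 fell, against 20.0% higher and 19.5% lower of all genes. Plec, which links keratin to integrins and actin, differed by -0.016 from 3NC and by 0.083 from 5NC (limma adjusted p = 0.885 and 0.364). After GC correction Plec was called higher than in 5NC (0.28, limma adjusted p = 8.06e-05) and not against 3NC (0.086, limma adjusted p = 0.136). Dst, whose epithelial form is a hemidesmosome plakin, fell by 0.24 and 0.19. Macf1, a linker of actin and microtubules, rose by 0.14 against 3NC (limma adjusted p = 0.0434) and differed by -0.11 from 5NC. The difference from 5NC was called after GC correction (-0.10, limma adjusted p = 0.0341). Among the armadillo relatives Ctnnb1, Ctnnd1 and Arvcf, 1 rose and 1 fell against 3NC, and 0 rose and 2 fell against 5NC, where 24.7% of all genes were higher and 30.5% lower. Ctnnd2 was listed at 0 in every library. Ctnnb1, the beta-catenin gene and nearest relative of Jup, differed by 0.0032 from 3NC (limma adjusted p = 0.958) and was lower than in 5NC by 0.16. Arvcf rose by 0.33 against 3NC and was lower by 0.21 against 5NC, and Ctnnd1 fell by 0.17 against 3NC. After GC correction Arvcf was no longer called against 5NC (-0.040, limma adjusted p = 0.495), while Ctnnb1 still was (-0.11, limma adjusted p = 0.0174). Of the hemidesmosome genes Itga6, Itgb4, Col17a1 and Cd151, 2 were tested, and Itga6 fell by 0.43 against 3NC while Cd151 differed by 0.11 (limma adjusted p = 0.158). Cd151 was called higher than in 3NC after GC correction (0.16, limma adjusted p = 0.00286). Itgb4 reached at most 0.42 FPKM and Col17a1 at most 0.01. Of the cornified envelope partners, 5 of 6 were in the table and 2 were tested. Kazn, which encodes a periplakin-binding protein, differed by 0.092 from 3NC (limma adjusted p = 0.369) and was lower than in 5NC by 0.20. The latter call was lost after GC correction (-0.18, limma adjusted p = 0.0508). Sprr1a, a cornified envelope precursor, was at 0.53, 0.93 and 0 FPKM in 8276KD, at 0 in every 8276OV library, at 0.21, 0.19 and 0.10 in 5NC, and at 5.75, 4.78 and 4.11 in 3NC.

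Among genes known to regulate desmosomes, 9 of 11 were tested, and 0 rose and 4 fell in 8276KD against 3NC, where 39.4% of all genes were called and 19.5% were lower. Snai1, which encodes a repressor of epithelial junction genes, had 3.89, 4.57 and 2.63 FPKM in 8276KD, 1.28, 2.49 and 1.84 in 8276OV, 3.68, 3.63 and 3.38 in 5NC, and 6.60, 7.56 and 7.02 in 3NC. It fell by 0.80 against 3NC (limma adjusted p = 0.00105) and differed by 0.020 from 5NC (limma adjusted p = 0.922). Twist1, another such regulator, fell by 0.38 against 3NC and 0.50 against 5NC. Zeb2 fell by 0.33 against 3NC and differed by 0.11 from 5NC (limma adjusted p = 0.292), and Prkca, a kinase gene of desmosome turnover, fell by 0.16 and 0.34. Against 5NC, 0 rose and 5 fell, where 55.3% of all genes were called and 30.5% were lower, with Snai2 at -0.36, Adam10 at -0.26 and Trp53 at -0.23 beside Twist1 and Prkca. Zeb1 and Adam17 were not called against either control. After GC correction Snai2 was also called lower than in 3NC (-0.26, limma adjusted p = 0.0233). Grhl2, an activator of epithelial genes, reached at most 0.32 FPKM and Trp63 at most 0.04.

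Dsp had the widest range of group means of the 7 genes, 1.04 on the log2 scale. The 5 genes with the highest Pearson correlation of log2(FPKM + 1) to Dsp over the 12 libraries were Ildr2 (0.972), Mtmr12 (0.967), Pcdh19 (0.965), Igsf1 (0.956) and Herc3 (0.955). Ildr2 averaged 8.70 FPKM in 8276KD, 6.43 in 8276OV, 6.70 in 5NC and 4.82 in 3NC (means, n = 3 each), the same order of means as for Dsp. Mtmr12, Igsf1 and Herc3 had this order too, while Pcdh19 was higher in 8276OV (9.45) than in 5NC (8.81). The 12 points come from 4 groups and share the normalization, so these values describe likeness and carry no test.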

How the data were processed

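RNA of 12 C18-4 libraries was measured by sequencing, with 3 libraries in each of 4 groups. The authors deposited a table of values per gene and library whose unit no label or header names. The deposited values were read as FPKM because they are not whole and differ in sum between libraries. TPM is possible. Whether the low values fall in steps that scale with transcript length was not tested. Per the submitters' processing notes, reads were placed on mm10. The sources used here name no aligner, quantifier, annotation or use of strand. Symbols turned into dates or shared by 2 identifiers were replaced by RefSeq symbols (26 genes). Coordinates and promoters are from RefSeq GRCm38.p6, the assembly of mm10. Length and GC content are those of the longest GENCODE M21 transcript.

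Genes with at least 1 FPKM in at least 3 libraries were kept (11360). log2(FPKM + 1) was fitted with limma 3.58.1 in R 4.3.3, with a mean per group over all 12 libraries and eBayes with trend and robust set, and two-sided p-values were adjusted over all tested genes (Benjamini-Hochberg). The limma procedure was tested on simulated data. An exact permutation test of 3 against 3 cannot give a p below 0.1. GC correction took each gene's deviation from its mean over the 12 libraries and subtracted each library's trend of these deviations with GC content. The trend was a natural spline with 5 degrees of freedom, and 98.6% of tested genes had a GC value. Alternatives were another pseudocount, no filter, other scalings, other controls, a replicate block and leaving out each library. Mean squared differences between libraries of a group were 1.46 to 6.14 times the counting variance at the implied depth. The values of no library were thus a copy of another's, but such ratios cannot tell separate cultures from repeat preparations. Members and lists were chosen with earlier results of these data known. Named genes were all members, genes of the lists written down with the design that passed the filter, and the 5 genes most like the member with the widest range. Genes of these lists below the filter are given by their levels or not named.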

Additional observations from a re-analysis of the deposited data

How the results depend on the processing

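In 8276KD against 3NC, 6 members were called in every scaling, filter, moderation and leave-one-out fit, and the fold changes of Dsp ranged from 0.98 to 1.10 when a library was left out. Pkp2 and Evpl turned sign with 5NC as the control (0.32 and 0.44) and with 3NC and 5NC together (0.019 and 0.17), and Pkp1 with 5NC as the control (0.049). With 5NC and without 8276KD replicate 2, an alternative added after seeing the data, 5 were called and Pkp1, Pkp2 and Evpl were at 0.068, 0.32 and 0.38. In 8276OV against 5NC the count of members called was 2, and 1 with quantile normalization, median-of-ratios factors or eBayes without trend and robust, 5 with GC correction, with or without the replicate block, 5 with 3NC as the control and 4 with both controls. It was 3 with equal library sums, Pkp4 being gained, and 1 to 2 when a library was left out. Without the filter it was 3, among them Dsg2 and Ppl at 0.047 and 0.056 (limma adjusted p = 0.0335 and 0.0399), which rest on 6 fragments or fewer. Signs turned in that comparison with quantile normalization for Dsp, Pkp1 and Pkp4 (0.089, 0.13 and 0.046), with median-of-ratios factors for Dsp and Pkp1 (0.0019 and 0.023), with equal library sums for Pkp2 (-0.0059), and with GC correction, with or without the block, for Dsp, Pkp1, Pkp4, Jup and Evpl (0.15, 0.31, 0.14, 0.39 and 0.56). They turned with 3NC as the control for Dsp, Pkp2 and Perp (0.38, -0.56 and 0.055), with both controls for Dsp and Pkp2 (0.16 and -0.26), and for Pkp1 when a library was left out (-0.11 to 0.034). In the difference of effects Evpl turned with quantile normalization (0.059), median-of-ratios factors (0.0044), GC correction with or without the block (0.56), and in a leave-one-out range of -0.17 to 0.022. The cause was not tested.

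Quantile normalization moved the median of all genes in 8276OV against 5NC to 0.029, against -0.088 as deposited, and the split of all calls to 4428 higher and 3997 lower, against 3447 and 5005. With median-of-ratios factors the split was 4168 and 4284, after GC correction 3115 and 3020, and with equal library sums 3071 and 5335, where the median was -0.13. In the difference of effects the split was 3542 and 3230 with quantile normalization, 3485 and 3435 with median-of-ratios factors and 2789 and 2733 after GC correction and 2278 and 4538 with equal library sums, against 2778 and 4107. Replicate numbers did not pair the libraries across all 4 groups: correlations of same-numbered deviations ran from -0.254 to 0.590. Of 12 libraries, 4 correlated best with their own number. These were replicates 1 and 2 of 8276KD and 8276OV, with correlations of 0.467 and 0.590 between the groups, against 0.0287 for replicate 3. What these libraries share was not tested. With the replicate block, 4434 genes were called in 8276KD against 3NC (4477 without it), and Jup was called in 5NC against 3NC (limma adjusted p = 0.0450). Dropping groups outside the comparison does not apply to the difference of effects, which uses all 4. Perp and Pkp1, with at most 93 and 188 implied fragments per library, are limited most by depth.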
